A study of Mus musculus with 6 samples.

Results

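Peaks of trimethylated lysine 27 of histone H3 (H3K27me3) at CpG-rich promoters were examined in primary cultures of mouse mesangial cells, which support the capillaries of the glomerulus. For each protein-coding gene, 1 kb was taken to both sides of its transcription start site (TSS), and the promoter counted as CpG-rich where that sequence had a GC share of at least 0.5 and a ratio of observed to expected CpG of at least 0.6. A peak was a member where it lay on chromosomes 1 to 19 and came within 2 kb of such a TSS. The 6 peak lists held 1418 members among 11214 peaks in all, or among 10618 peaks on these chromosomes. There were 6529 CpG-rich promoters, and 659 of them had a peak in at least 1 sample. The other 14889 promoters on these chromosomes are called CpG-poor here. The design set 3 Control samples against 3 samples given transforming growth factor β1 (TGF-β1), a cytokine that drives fibrosis, for 72 h at 10 ng/ml. Glucose in the medium was 25.5 mM and serum 20% in both groups. Between 24753483 and 25635595 tags of each library were read in for peak calling, and 19721434 to 22307716 remained after removal of duplicates. The broad peaks of each library were called on its own against the local background, and no input library was used. The study calls its replicates biological, but the labels do not say whether they came from separate cultures or animals, and the p-values measure the spread between these samples.

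H3K27me3 is deposited by Polycomb repressive complex PRC2 and is found at silent genes. In mammals the complex is recruited mainly to CpG islands, and the promoters it holds silent are typically those of developmental transcription factors, signalling genes and genes of other lineages, while the CpG islands of housekeeping genes are active and free of the mark. A CpG-rich promoter is therefore the place where the mark is usually looked for first.

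The sequences of 7 of the promoters that carry the pattern of calls are given first, to show what the marked DNA looks like. Each is the 200 bases with the most CpG under the peaks of all samples in which that promoter was called, outside any untranslated region, on mm9 and written 5′ to 3′ on the strand of the gene, with every CpG in capitals. The stretches of Cdh1 and Coro2a lay under peaks in all 6 samples. For Cdh1 the stretch was chr8:109127852-109128051 on the plus strand, 601 to 800 bp downstream of the TSS in an intron of the coding transcripts, with 13 CpG. For Coro2a it was chr4:46614225-46614424 on the minus strand, 650 to 849 bp downstream in an intron, with 20 CpG.
Cdh1: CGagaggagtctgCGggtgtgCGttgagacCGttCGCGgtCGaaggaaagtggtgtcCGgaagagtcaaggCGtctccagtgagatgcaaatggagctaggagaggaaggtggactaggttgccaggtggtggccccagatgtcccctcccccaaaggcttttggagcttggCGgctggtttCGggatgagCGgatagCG
Coro2a: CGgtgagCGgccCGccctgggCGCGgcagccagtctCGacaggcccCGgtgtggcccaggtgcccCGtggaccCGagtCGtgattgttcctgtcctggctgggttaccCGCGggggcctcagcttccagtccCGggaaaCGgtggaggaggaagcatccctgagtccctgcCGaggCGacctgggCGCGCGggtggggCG

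Cadps and Adra2a were called in 5 samples, with 2 or more of them from TGF-β1. The Cadps stretch was chr14:13655734-13655926 on the minus strand, at -333 to -141 bp from the TSS, was 193 bases long and held 3 CpG at a GC content of 50.3%. The Adra2a stretch was chr19:54121150-54121349 on the plus strand, 1478 to 1677 bp downstream, wholly within coding sequence, with 17 CpG.
Cadps: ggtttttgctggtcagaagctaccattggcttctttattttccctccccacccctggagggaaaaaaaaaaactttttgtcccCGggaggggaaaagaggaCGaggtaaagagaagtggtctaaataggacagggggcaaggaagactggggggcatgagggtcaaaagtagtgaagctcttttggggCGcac
Adra2a: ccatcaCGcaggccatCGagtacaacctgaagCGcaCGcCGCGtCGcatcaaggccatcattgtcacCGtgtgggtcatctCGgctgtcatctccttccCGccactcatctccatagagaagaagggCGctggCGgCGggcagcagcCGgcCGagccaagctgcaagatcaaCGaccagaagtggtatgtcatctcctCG

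Mtus2, Stac2 and Lemd1 were called in the 3 Control samples and in 0 TGF-β1 samples. The Mtus2 stretch was chr5:148768685-148768884 on the plus strand, at -211 to -12 bp from the TSS, with 19 CpG, and it overlapped the first exon of the long non-coding RNA gene Gm15721 on the other strand. The Stac2 stretch was chr11:97913428-97913627 on the minus strand, 1149 to 1348 bp downstream in an intron, with 15 CpG. The Lemd1 stretch was chr1:134087345-134087544 on the plus strand, at -668 to -469 bp, with 27 CpG.
Mtus2: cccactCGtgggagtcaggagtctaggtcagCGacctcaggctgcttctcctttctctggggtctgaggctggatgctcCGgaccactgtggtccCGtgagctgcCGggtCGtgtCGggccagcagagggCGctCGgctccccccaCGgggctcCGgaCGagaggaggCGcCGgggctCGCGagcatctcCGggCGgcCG
Stac2: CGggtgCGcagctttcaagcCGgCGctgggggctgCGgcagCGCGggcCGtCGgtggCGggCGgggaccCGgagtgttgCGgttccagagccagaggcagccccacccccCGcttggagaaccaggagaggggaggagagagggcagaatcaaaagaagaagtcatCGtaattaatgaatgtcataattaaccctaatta
Lemd1: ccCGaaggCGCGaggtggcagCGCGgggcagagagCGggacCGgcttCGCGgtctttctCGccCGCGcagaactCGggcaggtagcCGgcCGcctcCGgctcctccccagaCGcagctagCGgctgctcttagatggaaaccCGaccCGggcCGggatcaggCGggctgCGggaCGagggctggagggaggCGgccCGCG

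For scale, the 200 bases before the TSS held a median of 18 CpG over the 6529 CpG-rich promoters, with quartiles of 13 and 24, and a median of 7 over all 21418 protein-coding promoters on these chromosomes. That window has a fixed position, whereas each stretch shown was picked for its number of CpG. Of the 7 stretches shown, those with calls in both groups held 3 to 20 CpG and those called only in Control 15 to 27. These ranges are not a like comparison. The DNA common to the peaks of all calling samples, from which a stretch was picked, was 193 to 321 bp in the former. It was 251 to 545 bp in the latter.

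The first question was how many CpG-rich promoters carried a peak with and without TGF-β1. Member peaks numbered 409, 420 and 308 in Control and 121, 62 and 98 with TGF-β1. Every TGF-β1 sample lay below every Control sample, and TGF-β1 replicate 2 was the lowest. The means were 379 ± 61.7 and 93.7 ± 29.7 peaks (SD, n = 3 each), a log2 ratio of -2.06 against a pooled replicate SD of 0.39, with an exact permutation p of 0.1 (2-sided), which is the smallest that 3 against 3 samples allow. In promoters, 6.26, 6.48 and 4.78% of the CpG-rich set had a peak in Control and 1.90, 0.965 and 1.56% with TGF-β1. The bases under peaks within 2 kb of these starts were 266705, 284084 and 180143 in Control against 61390, 27873 and 48813 with TGF-β1, a log2 ratio of -2.45.

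CpG-poor promoters and the rest of the genome had smaller differences. CpG-poor promoters had 448, 437 and 301 peaks in Control and 178, 77 and 154 with TGF-β1, a log2 ratio of -1.60, and peaks that were not members had a log2 ratio of -0.88. The difference between CpG-rich and CpG-poor promoters was -0.46 on the log2 scale, with a pooled SD of 0.14 and no overlap between the groups (exact permutation p = 0.1). The groups overlapped in this difference within 1 kb of the TSS (exact permutation p = 0.3) and at a -log10 q of at least 1 (p = 0.2) or 5 (p = 0.5). Members were 15.9, 16.3 and 16.3% of all peaks on these chromosomes in Control and 7.78 to 8.0% in the TGF-β1 samples, so the share was far more even between replicates than the counts. With the 878 peaks of smallest q kept in each list, the log2 ratio of member peaks was -0.91, less than its size over the whole lists.

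**Figure D1:**
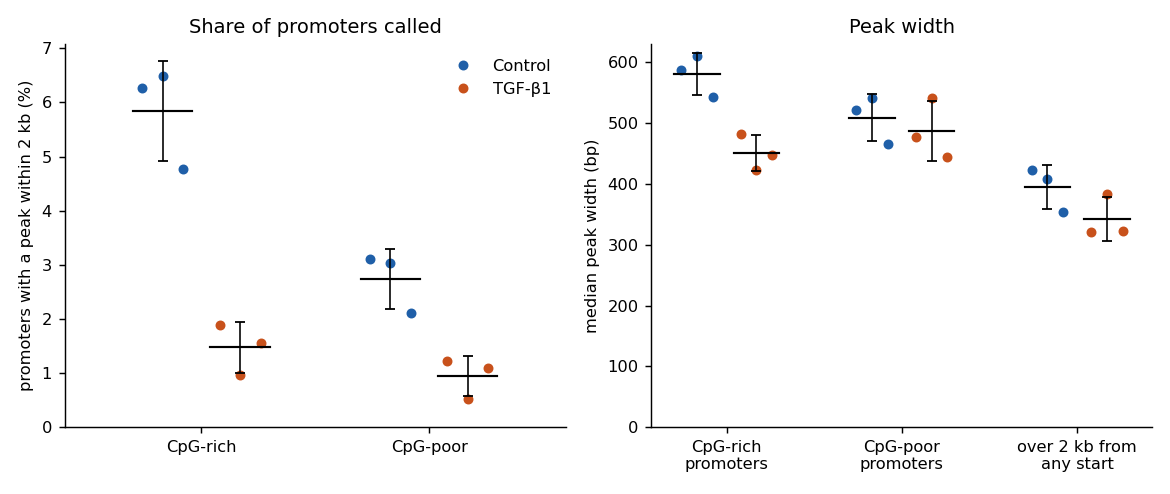
Left, percentage of CpG-rich and CpG-poor promoters with a peak within 2 kb of the TSS, and right, median peak width in bp for CpG-rich promoters, CpG-poor promoters and peaks over 2 kb from any start. Each point is 1 sample, and the line and bar are the mean and SD of 3 samples. At CpG-rich promoters the groups do not overlap in either panel, with median widths of 542.5 to 609.5 bp in Control and 422.5 to 482 bp with TGF-β1.

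Most calls were weak. Between 67.4 and 76.0% of members in the Control samples and between 61.3 and 74.5% in the TGF-β1 samples had a -log10 q under 1, and the median fold enrichment of a member over its local background was 1.71 to 1.92 in Control and 1.92 to 1.94 with TGF-β1. The fold enrichment per sample was thus not lower with TGF-β1 (1.79 ± 0.120 against 1.93 ± 0.0111, SD, n = 3, exact permutation p = 0.2), among the fewer peaks that were called. Peaks over 2 kb from any start had a median GC content of 49.2 ± 0.831% in Control and 48.9 ± 0.544% with TGF-β1 (SD, n = 3), so the groups did not differ in the base composition of their other peaks beyond the replicate spread (exact permutation p = 0.8). Repeated sequence was rare in members: 1.59 ± 0.145% of them in Control and 3.62 ± 1.80% with TGF-β1 had over 50% of their 31-base words elsewhere in the genome. Chromosome 9 stood apart, with a local background implied by pileup and fold enrichment of 87.5 tags at its members against 2.84 to 7.10 on the other chromosomes. Its 383 CpG-rich promoters had 10, 15 and 3 calls in Control and 0 in each TGF-β1 sample. The log2 ratio of member peaks without chromosome 9 was -2.03.

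Most peaks were centred downstream of the start, on the transcribed side. The median midpoint was 470, 384 and 350.5 bp downstream of the TSS in Control and 391.5, 586.75 and 316.75 bp downstream with TGF-β1. All 6 medians were on the downstream side (exact sign-flip test of 6 samples against 0, 2-sided p = 0.03125), and 71.2 ± 1.82% of Control members and 68.8 ± 3.89% of TGF-β1 members had a downstream midpoint. The groups overlapped in this offset, 402 ± 61.6 against 432 ± 139 bp (exact permutation p = 0.8), and in the absolute distance, 633 ± 50.2 against 670 ± 43.1 bp (p = 0.4). A member overlapped the TSS itself in 24.9, 31.7 and 25.3% of cases in Control and 26.4, 11.3 and 21.4% with TGF-β1, with the lowest share in TGF-β1 replicate 2 (exact permutation p = 0.3).

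Coverage by position showed the same asymmetry. In Control the covered share of CpG-rich promoters was highest 584, 422 and 560 bp downstream of the TSS, where 2.37, 2.57 and 1.62% of them lay under a peak. With TGF-β1 it was highest 448, 545 and 690 bp downstream, at 0.536, 0.337 and 0.475%. Coverage 1000 bp downstream was 1.76, 1.76 and 0.950% in Control, several times that at 1000 bp upstream, 0.444, 0.414 and 0.322%. At CpG-poor promoters the maximum was nearer the start in 6 of 6 samples, at 259, 185 and 213 bp in Control and 269, 166 and 228 bp with TGF-β1. The median signed offset, however, was higher at CpG-rich promoters in 5 of 6 samples and missed the test (exact sign-flip p = 0.09375).

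**Figure D2:**
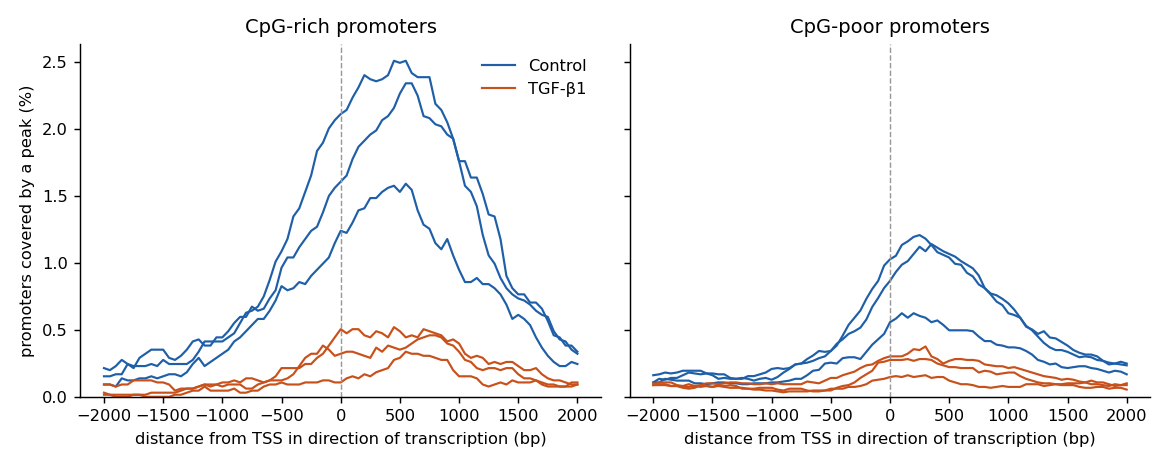
Percentage of CpG-rich (left) and CpG-poor (right) promoters covered by a peak at each distance from the TSS in bp, positive in the direction of transcription, with 1 line per sample. The dashed line marks the TSS, and the Control maxima at CpG-rich promoters are 1.62 to 2.57% and lie 422 to 584 bp downstream of it.

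Outside the TSS itself, fewer peaks were found with each 500 bp up to 2.5 kb, and relative to Control the mean TGF-β1 number was lowest at the start itself. Peaks that overlapped the TSS numbered 104 ± 27.6 in Control and 20.0 ± 12.5 with TGF-β1 (SD, n = 3), so that the TGF-β1 mean was 19.2% of the Control mean. By sample they were 102, 133 and 78 in Control and 32, 7 and 21 with TGF-β1, with replicate 2 far below the others. The share of members over the TSS differed by -7.59 points over the whole lists and by -1.96 points at a -log10 q of at least 1. At up to 500 bp from the TSS without overlap the TGF-β1 mean was 26.4% of Control, and between 1.5 and 2 kb, just inside the limit for members, it was 32.4% (22.7 ± 6.03 against 7.33 ± 4.16 peaks). Just outside, between 2 and 2.5 kb, there were 10.3 ± 2.08 and 5.67 ± 2.31 peaks, or 54.8%. The figure was 44.7% between 2.5 and 3 kb and 52.3% between 3 and 4 kb.

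Members were also wide beside peaks far from any start, but not clearly beside peaks at CpG-poor promoters. Their median width was 587, 609.5 and 542.5 bp in Control and 482, 422.5 and 447 bp with TGF-β1, a log2 ratio of -0.36 with no overlap between the groups (pooled SD 0.09, exact permutation p = 0.1). Peaks over 2 kb from any start were narrower than members of the same sample in 6 of 6 samples, by 1.39-fold on average (exact sign-flip p = 0.03125), although a wider peak also reaches a start more easily. Peaks at CpG-poor promoters, which are picked by the same distance, had median widths of 508.5 ± 38.9 bp in Control and 486.7 ± 49.2 bp with TGF-β1, with overlapping groups (exact permutation p = 0.7). Members were wider than these in 5 of 6 samples, by 1.03-fold on average (exact sign-flip p = 0.5625). The within-sample log2 ratio of CpG-rich to CpG-poor width was 0.19 ± 0.03 in Control and -0.11 ± 0.21 with TGF-β1, a difference of -0.30 (exact permutation p = 0.1). The widest member of a sample spanned 2261 to 2516 bp in Control and 1518 to 1933 bp with TGF-β1.

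Recurrence between samples was limited. Of the 6529 promoters, 627 had a peak in at least 1 Control sample, and 269 of these in 1 sample alone. Calls in at least 2 Control samples were made at 358 promoters (5.48%) and in all 3 at 159 (2.44%). With TGF-β1, 217 promoters had a peak in at least 1 sample (3.32%), 55 in at least 2 (0.842%) and 17 in all 3. The more often a promoter was called in Control, the more often it had a peak with TGF-β1: 0.542% of those with no Control call, 15.2% of those with 1, 29.1% of those with 2 and 54.1% of those with 3. Of the 159 promoters called in all Control samples, 86 had a peak in at least 1 TGF-β1 sample, 39 in at least 2 and 15 in all 3, while 73 (1.12% of all CpG-rich promoters) had none. The bases under peaks were higher in every Control sample than in every TGF-β1 sample at 100 promoters (1.53%), and the reverse held at 1 promoter (0.0153%). Some calls were shared, since 60 called promoters had a peak that also served the start of another gene.

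The 15 promoters called in all 6 samples were those of Fcgr3, Cdh1, Coro2a, Tox3, Ankrd43, Gm9945, Nefh, Kbtbd11, 1810019J16Rik, 0610040J01Rik, Atf3, Aqp5, Sgpp2, Dbx1 and A330050F15Rik. They include genes of epithelium (Cdh1, or E-cadherin, and the water channel gene Aqp5) and of neurons (the neurofilament gene Nefh and the homeobox gene Dbx1), cell types other than the one studied. The rest of the 15 were not grouped by cell type. Nefh was close to the background, with a fold enrichment of 1.12, 1.01 and 1.26 in Control and 1.24, 1.26 and 1.03 with TGF-β1. Ankrd43 and Gm9945 start close together on opposite strands and shared their peaks. Cdh1 had 1463, 1084 and 915 bp under peaks in Control and 955, 378 and 665 bp with TGF-β1. Its groups overlapped, since TGF-β1 replicate 1 lay above Control replicate 3, and the sequence shown above lay under the peaks of all 6. Atf3, a stress-induced transcription factor, had 965, 903 and 722 bp in Control and 561, 232 and 332 bp with TGF-β1, with no overlap, and its peaks had a median offset of -1361 bp, upstream of the start. Coro2a, which encodes an actin-binding coronin, had 1312, 479 and 1077 bp against 615, 870 and 1037 bp, groups that overlapped widely. Fcgr3, an immunoglobulin receptor gene, had the most covered bases, 1630 to 2248 bp in Control and 1195 to 1933 bp with TGF-β1. Up to 91.6% of the 31-base words of its peaks occurred elsewhere in the genome.

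Among promoters called in at least 2 TGF-β1 samples, the next by covered bases were those of Cadps, which acts in vesicle release, the adrenergic receptor gene Adra2a, 2210011C24Rik and Pitpnm3. Cadps had 1722, 1382 and 0 bp in Control and 1554, 202 and 1295 bp with TGF-β1. Its peaks reached a fold enrichment of 8.11, 4.55 and 4.80 with TGF-β1 against 1.71 and 1.83 in the Control samples that had one, so all 3 TGF-β1 values lay above both Control values. Adra2a had 939, 1524 and 529 bp in Control and 0, 835 and 1214 bp with TGF-β1, and its peaks were centred 1520 bp downstream of the TSS. Eef2, an elongation factor gene, was the only promoter with more covered bases in every TGF-β1 than in every Control sample, with 0, 0 and 513 bp in Control and 580, 590 and 601 bp with TGF-β1, centred 1827 bp downstream of the TSS and so near the 2 kb limit. The neighbouring histocompatibility genes H2-Q6 and H2-Q7 were also in this set, with up to 85.1 and 82.4% repeated words.

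The 73 promoters called in all Control samples and no TGF-β1 sample were led by Mtus2, Stac2, Lemd1, Celsr3 and Nptx2. This set depends on the calls, since Control lists were longer (2350 ± 397 against 1189 ± 363 peaks on these chromosomes, SD, n = 3). With equal list lengths 7 promoters had the pattern, and at a -log10 q of at least 1 there were 9. Mtus2, a microtubule-associated gene, had 1268, 1900 and 1241 bp in Control, Stac2 had 545, 1960 and 1696 bp, and Lemd1 had 1315, 1483 and 1048 bp. Nptx2, a neuronal pentraxin gene, had 1196, 1120 and 1427 bp, and Celsr3, a cadherin gene of axon guidance, had 1566, 1611 and 572 bp but lies on chromosome 9, where no TGF-β1 sample had a member. Also among the 25 with the most covered bases were the potassium channel genes Kcnk3 (1118, 1195 and 1093 bp) and Kcna7, the calcium channel genes Cacna1h and Cacna1b, the axon guidance receptor Plxna4, and the muscle-membrane genes Bves and Popdc3. Among the 25 were also the developmental transcription factor genes Pou3f1 (649, 1682 and 1310 bp), Tlx2 (1369, 403 and 1672 bp) and Olig3 (1220, 1207 and 647 bp). Fold enrichments of the 25 in Control were mostly between 1 and 3. Popdc3 was the only one above 3 in all 3 Control samples, at 3.94, 4.03 and 5.36. Bves had 4.07 and 4.46 in Control replicates 2 and 3, and Tlx2 had 3.21 and 3.58 in Control replicates 1 and 3. Control replicate 1 alone was above 3 at Gnal (5.79) and Pou3f1 (4.66).

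There were 32 promoters with a peak in at least 1 TGF-β1 sample and none in Control, and 2 of these had it in more than 1 sample. The set depends on the 2 kb limit. Ap1g1, among the 32, lay beside a region with peaks in all 6 samples, of which only that of TGF-β1 replicate 1 came within 2 kb of the TSS. Shisa3, which encodes an inhibitor of Wnt and FGF signalling, had 899, 0 and 587 bp with TGF-β1. Tbc1d30, Cadps2, Cdh22 and Atoh1, a transcription factor of neural and sensory cells, had a peak in 1 TGF-β1 sample each, of 1233, 985, 720 and 667 bp.

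**Figure D3:**
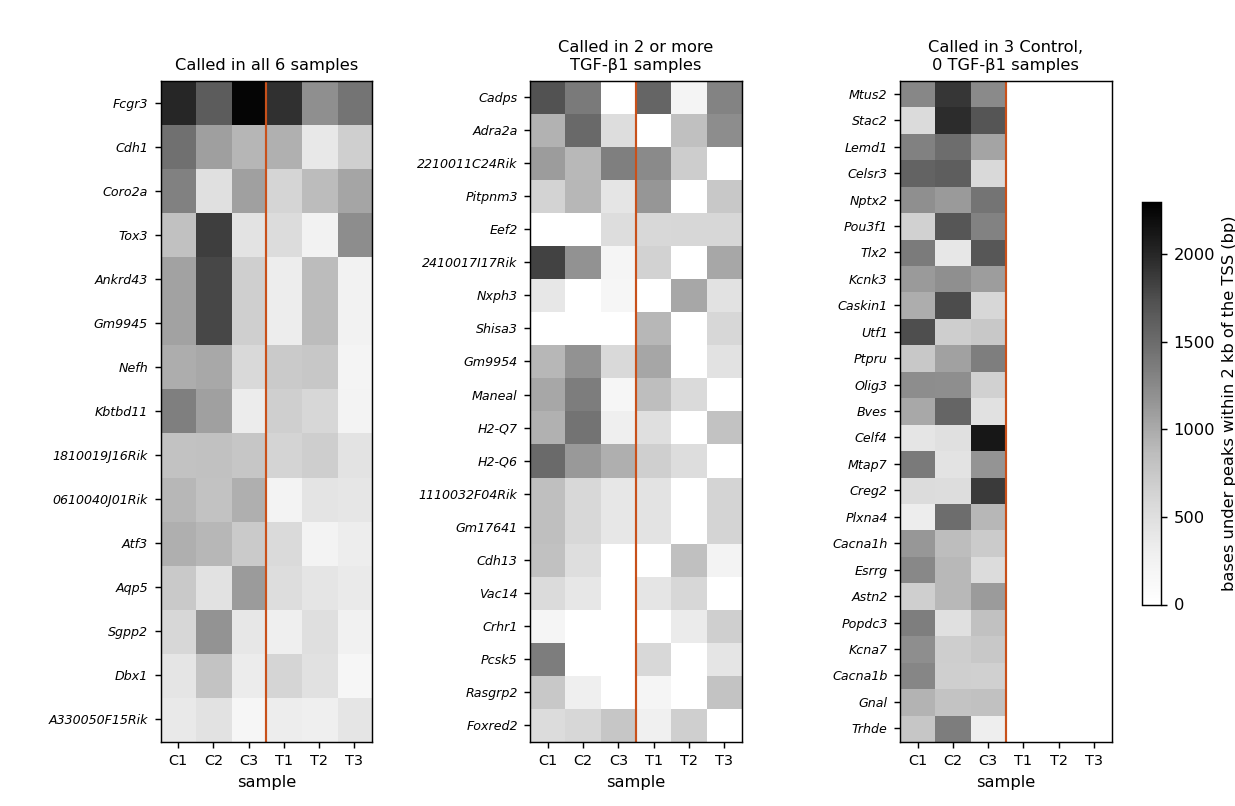
Bases under peaks within 2 kb of the TSS (grey scale, bp) in the 3 Control (C1 to C3) and 3 TGF-β1 samples (T1 to T3), for promoters called in all 6 samples, the leading promoters called in 2 or more TGF-β1 samples, and the leading promoters called in 3 Control and 0 TGF-β1 samples. The right panel is white under TGF-β1 because its members were chosen so, and in the left panel only Atf3, 0610040J01Rik and 1810019J16Rik have no overlap between the groups.

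The regions called in all 6 samples allowed a comparison of enrichment among peaks that were kept. A region without a call in any 1 sample is left out. The fit therefore cannot show whether enrichment differed where calls were lost. Over the 240 such regions of the whole series, a limma fit to log2 of the maximum enrichment in each region passed 0 at an adjusted p of 0.05 (0%), and 18 were higher and 6 lower with TGF-β1 at an unadjusted p under 0.05. There were 15 such regions at CpG-rich promoters, with a median log2 ratio of 0.06 beside 0.07 over all 240. They are not the same set as the 15 promoters called in all 6 samples. Regions at Ap1g1 and Lphn3 are among them, Ankrd43 and Gm9945 share a region, and Dbx1 has none. Coro2a had a fold enrichment of 1.67, 1.55 and 1.90 in Control and 2.61, 1.99 and 3.29 with TGF-β1, a log2 ratio of 0.60 ± 0.21 (SE), and 0610040J01Rik had 1.79, 1.95 and 1.98 against 1.67, 1.14 and 1.11, a log2 ratio of -0.57 ± 0.19 (SE). Neither passed (limma adjusted p = 0.441 for both), although in each the groups did not overlap in fold enrichment. At 0610040J01Rik the log2 ratio of pileup, which is not scaled to depth, was 1.197, opposite in sign to that of fold enrichment. Its lower fold enrichment therefore does not show a lower signal there, and why the measures differed was not tested. At Coro2a both log2 ratios were positive.

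Gene classes were described by the share of their CpG-rich promoters that was called, read beside the 5.48% of all CpG-rich promoters called in at least 2 Control samples. Ion channel and neurotransmitter receptor genes had 23 of 81 (28.4%) called in at least 2 Control samples and 13 in all 3, the highest share of the classes over the whole lists, while at a -log10 q of at least 1 matrix genes were first, with 3 of 44 against 3 of 81. Per sample, 34.6, 34.6 and 27.2% of them had a peak in Control and 8.64, 6.17 and 4.94% with TGF-β1. Potassium channel genes contributed 11 of 27 and calcium channel genes 4 of 11, while sodium, chloride and other channel genes contributed 0 of 10. Kcnc1, a potassium channel gene, had 1103, 1480 and 766 bp under peaks in Control and 754, 0 and 0 bp with TGF-β1.

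Extracellular matrix genes had 11 of 44 (25%) called in at least 2 Control samples, and 13.6% were called in both others without Control replicate 1 or 2, where the background was 3.25 and 3.06%. They had a peak in 27.3, 29.5 and 18.2% of cases in Control and 2.27, 2.27 and 4.55% with TGF-β1. The leading members were Fbn2, the gene of fibrillin 2 (824, 906 and 682 bp in Control), Emilin3 and Col13a1, each with 0 bp in every TGF-β1 sample, and Mmp15, a membrane-bound metalloproteinase gene, which had 715, 701 and 161 bp in Control and 303, 0 and 448 bp with TGF-β1. Only 44 of the 181 matrix genes of the list had a CpG-rich promoter, so most of that class lies outside this set.

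Homeobox genes, the textbook Polycomb targets, had 14 of 100 promoters (14%) called in at least 2 Control samples, with 12, 20 and 15 called per Control sample and 3, 5 and 3 per TGF-β1 sample. Within them, the genes that set position along the body axis had 2 of 19 and the NK-like and neural homeobox genes 7 of 27. Dbx1 kept a peak in all TGF-β1 samples, and Mixl1, a mesoderm gene, had 1137, 742 and 586 bp in Control and 225, 0 and 204 bp with TGF-β1. Other transcription factors had 22 of 190 (11.6%) in at least 2 Control samples, led by the clock gene Npas2 with 1467, 1279 and 1156 bp in Control and 636, 205 and 0 bp with TGF-β1. The thyroid hormone receptor gene Thrb had 1339, 1181 and 328 bp against 482, 0 and 0 bp.

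Signalling genes had 14 of 138 (10.1%). The share called per Control sample was 15.9, 15.2 and 10.1%, against 5.07, 0 and 2.17% with TGF-β1. FGF ligands and receptors contributed 3 of 14, with Fgf8 at 1410, 1527 and 182 bp in Control and 763, 0 and 0 bp with TGF-β1. Ligands, receptors, Smads and inhibitors of the TGF-β and BMP pathways contributed 1 of 40.

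Housekeeping genes had 0 of 112 promoters called in any Control sample, and 1, Rpl38, in 1 TGF-β1 sample. Eef2 is not on that list, and its promoter, described above, was called in 1 Control and 3 TGF-β1 samples. The genes of Polycomb subunits and H3K27 demethylases had 0 of 20 called in at least 2 Control samples, with Cbx8 called in 1 Control and 1 TGF-β1 sample. Of 30 genes that mark kidney and immune cells, 8 had a CpG-rich promoter. The mesangial genes among them, Des, Tbx18 and Foxd1, had no peak in any sample, nor had the podocyte genes Wt1 and Podxl or the tubule gene Lrp2. The tubule genes Cdh1 and Epcam had peaks in 3 and 2 Control samples. In each class of at least 40 promoters other than housekeeping genes, every TGF-β1 sample lay below every Control sample. Among promoters called in at least 2 Control samples, 40.2% of all had a peak in at least 1 TGF-β1 sample, with 6 of 14 homeobox, 8 of 22 other transcription factor, 5 of 14 signalling, 8 of 23 channel and receptor and 2 of 11 matrix genes.

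**Figure D4:**
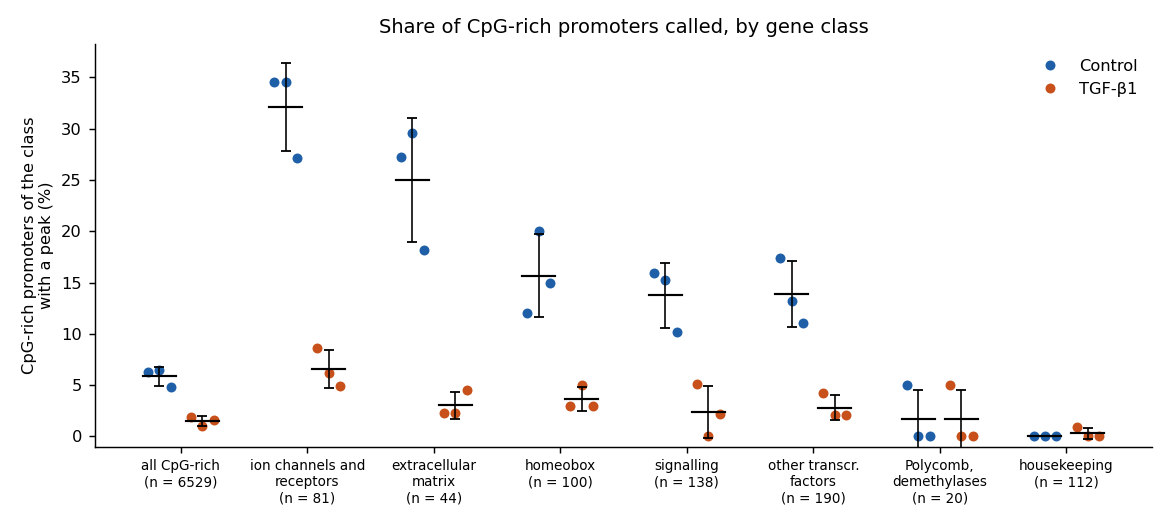
Percentage of CpG-rich promoters with a peak in each sample, for all 6529 and for 7 gene classes, with the number of CpG-rich promoters of the class below its name. Points are samples, and line and bar are the mean and SD of 3 samples. Ion channel and receptor genes reach 27.2 to 34.6% in Control, where housekeeping genes are at 0.

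The sequence of called promoters was set beside the rest of the CpG-rich set as a description, without a test. The median GC content of the 2 kb was 57.1% for the 5902 promoters with no Control call and 59.9, 59.5 and 60.4% for those called in 1, 2 and 3 Control samples. Their CpG ratio was not higher, at 0.73 without a call and 0.70, 0.69 and 0.72 with 1 to 3. The mean called share in Control was higher in each GC bin up to 0.7, from 2.80 ± 0.353% of promoters at a GC share of 0.5 to 0.55 to 11.2 ± 2.60% at 0.65 to 0.7, and was 10.6 ± 3.65% in the 88 promoters above. With TGF-β1 it went from 0.796 ± 0.415% to 3.07 ± 1.04% and was 0.758 ± 1.31% in the top bin. Along the CpG ratio it ran the other way, from 6.65 ± 1.05% at 0.6 to 0.7 to 2.98 ± 0.992% at 0.9 or more. The TGF-β1 mean was also lower at higher CpG ratios, from 1.84 ± 0.653% to 0.463 ± 0.413% along the CpG ratio. Which part of the GC order comes from the base composition of the libraries was not tested, and the peaks were called without a control library.

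The calls on both sides of the limits of the rule were as follows. Among promoters with a GC share of at least 0.5, 7.13 ± 1.55% were called in Control at a CpG ratio of 0.6 to 0.65, just inside the rule, and 7.97 ± 1.31% at 0.55 to 0.6, just outside. With TGF-β1 these shares were 2.20 ± 0.721% and 2.12 ± 1.03%, so the difference just outside the rule was not smaller. The Control share was highest at a ratio of 0.5 to 0.6, at 8.20 ± 1.68%, and fell to 0.428 ± 0.143% below 0.2. On the GC axis, 2.34 ± 0.637% were called in Control at 0.5 to 0.52 and 0.982 ± 0.122% at 0.48 to 0.5.

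**Figure D5:**
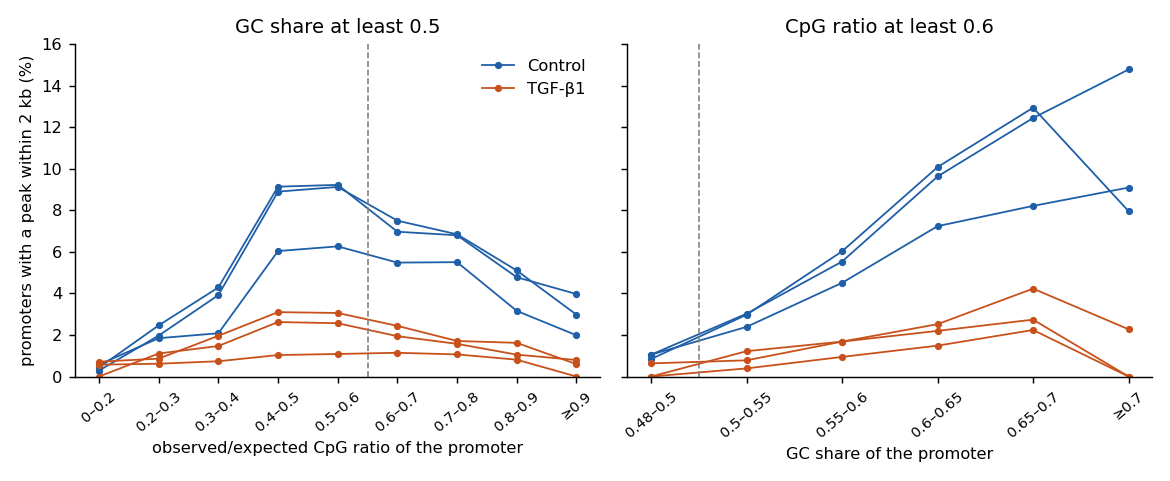
Percentage of promoters with a peak in each sample, by the observed to expected CpG ratio (left) and by the GC share (right) of the 2 kb around the TSS, with 1 line per sample. Dashed lines mark the limits of the rule. In Control the share peaks at a CpG ratio of 0.4 to 0.6 and reaches a mean of 11.2% at a GC share of 0.65 to 0.7.

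The surroundings of the promoters were described in the same way. A TSS of another protein-coding gene on the opposite strand within 1000 bp, as at a divergent promoter, was present at 23.2% of the CpG-rich promoters with no Control call and at 6.32, 7.54 and 6.29% of those called in 1, 2 and 3 Control samples. Such promoters made up 2 of the 73 that were called in all Control and no TGF-β1 samples, and 8 of the 86 called in all Control and at least 1 TGF-β1 sample. The median length of CpG-rich sequence within 5 kb on either side of the start was 1400 bp without a call and 1650 to 1700 bp with one.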

How the data were processed

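H3K27me3 ChIP-seq peak lists of 6 samples, 3 Control and 3 TGF-β1, were used, and no sample was left out. The study aligned reads to mm9 with BWA and kept uniquely mapped reads. Per the file headers, the authors ran MACS in broad mode on each sample (version 2.1.0.20150731), without a control library, at q thresholds of 0.01 (strong) and 0.1 (weak), with 49 bp tags and a background window of 10000 bp. The deposited pileup is a coverage signal that is not scaled to depth, the deposited fold enrichment is the ratio of signal over background around the peak, and p and q were deposited as -log10 values. After removal of duplicates 19721434 to 22307716 tags remained. The headers name the libraries gDNA and an extraction protocol in the labels describes methylated DNA, while the titles and antibody name H3K27me3, and grouping follows the labels.

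Starts came from GENCODE M1 and sequence from the mm9 genome, and a promoter was called where a peak came within 2 kb of its TSS. Sample values were compared with 2-sided exact permutation tests, whose smallest p is 0.1. The 240 regions called in all samples were fitted with limma 3.58.1 in R 4.3.3 and Benjamini-Hochberg adjustment. In simulated regions 77.5% of planted changes were found at 1 log2 unit and 97.5% at 2, with 4 and 1 false calls. Smaller changes, and the choice of regions by calls in every sample, were not simulated. The assignment returned all 200 of 200 planted peaks. Other steps ran in Python 3.11.15 with pysam 0.24.0, scipy 1.17.1, pandas 2.3.3 and numpy 2.4.6.

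Genes were named by rule: all promoters called in 6 samples, up to 20 called in at least 2 TGF-β1 samples, 25 called in all Control and no TGF-β1 samples and 5 called in at least 1 TGF-β1 and no Control sample, by covered bases, and 4 leaders per class. Members and gene lists were chosen with earlier results of these data known. Alternatives varied the distance, the CpG limits, the set of starts, the q limit, repeats, list length, joining of peaks within 1000 bp, single samples and the replicate block. Leaving out chromosome 9 and all alternatives for classes were added after seeing the data. Some items that this rule names are not reported here.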

Additional observations from a re-analysis of the deposited data

How the results depend on the processing

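In all, 176 values were recomputed under alternatives, and the lower number of member peaks, promoters and covered bases with TGF-β1 kept its direction in each. With equal list lengths the log2 ratios were -0.91 for peaks, -0.92 for promoters and -1.31 for bases, the share of members differed by -6.88 percentage points, and 7 promoters were called in all Control and no TGF-β1 samples and 35 in at least 2 TGF-β1 samples. With only peaks that overlap the TSS, the log2 ratios were -2.60, -2.64 and -3.11, the width ratio -0.60, the CpG-rich minus CpG-poor difference -0.82, the share -2.86 points, and the counts 10 and 12. The 2 counts were 30 and 14 at stricter CpG limits (share -2.76 points), 9 and 12 at a -log10 q of at least 1 (share -6.94 points, width -0.25), and 3 and 1 at a -log10 q of at least 5, where width was -0.087, TSS overlap -1.12 points and the CpG-rich minus CpG-poor difference -0.23. The share was -7.12 points within 1 kb, -9.05 with every transcript start, -8.62 without repeats and -8.09 without chromosome 9. The distance of midpoints reversed, from 37.5 bp to -70.2 bp for peaks over the TSS, -44.8 bp at a -log10 q of at least 5 and -17.2 bp with equal lists, and the cause was not tested. limma on pileup called 2 regions against 0.

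Leaving out 1 sample gave log2 ratios of -2.27 to -1.79 for peaks, -2.24 to -1.75 for promoters and -2.70 to -2.13 for bases, a width ratio of -0.41 to -0.32, a distance of 14.4 to 66.5 bp, TSS overlap of -11.0 to -3.37 points, a share of -8.42 to -8.22 points and a CpG-rich minus CpG-poor difference of -0.55 to -0.38. The Control-only count ran from 80 to 138, with 115 without Control replicate 1 and 138 without Control replicate 3, since fewer samples must then agree. The count in at least 2 TGF-β1 samples ran from 25 to 55, with 25, 33 and 31 without TGF-β1 replicates 1, 2 and 3. limma called 0 regions in each case.

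Deviations of same-numbered samples did not go together (correlations of -0.15 to -0.04 over 240 regions), so the numbers are not taken as pairs. The replicate block left the mean log2 ratio of member peaks at -2.06 (exact sign-flip p = 0.25, the smallest for 3 pairs) and limma calls at 0. Of 88 class shares under alternatives, 5 changed side of the background: signalling genes by -0.52 points for peaks over the TSS, -0.93 at stricter CpG limits and -0.31 at a -log10 q of at least 5, and homeobox and matrix genes by -0.31 at that q. Without 1 Control sample, the share of promoters called in both others was 18.5 to 21.0% for channel and receptor genes, 13.6 to 20.5% for matrix genes, 8 to 11% for homeobox genes, 5.26 to 8.95% for other transcription factors (lowest without Control replicate 1) and 5.07 to 6.52% for signalling genes, against a background of 3.06 to 4.04%. Depth enters through the calls and through the pileup, which is not scaled to it.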

Other observations

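Member peaks overlapped an exon in 57.9, 62.4 and 58.8% of cases in Control and 57.9, 56.5 and 55.1% with TGF-β1, lower in every TGF-β1 sample by a margin that was smallest between both replicates 1 (exact permutation p = 0.1). An untranslated region was overlapped by 44.1 ± 3.56% in Control and 36.3 ± 7.36% with TGF-β1 (SD, n = 3, exact permutation p = 0.3). Coding sequence was overlapped by 43.3 ± 1.76% of them in Control and 41.5 ± 3.30% with TGF-β1 (SD, n = 3, exact permutation p = 0.4), introns alone by 22.2 ± 1.32 and 21.8 ± 1.14% (p = 0.7, exact), and only sequence upstream of the gene by 18.1 ± 1.82 and 21.7 ± 2.36% (p = 0.2, exact).

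The log2 ratio of called CpG-rich promoters was negative on each chromosome with calls in both groups, from -2.58 on chromosome 3 to -1.29 on chromosome 8. On chromosome 8, with 399 CpG-rich promoters, 29, 29 and 20 were called in Control and 11, 8 and 13 with TGF-β1, and it holds Cdh1, Tox3 and Kbtbd11 of the promoters called in all 6 samples. Promoters called in 2 or 3 TGF-β1 samples belonged to genes with a median length of 17.6 kb, against 41.3 kb for those called in all Control and no TGF-β1 samples, a difference that was not tested.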
